A study of Mus musculus with 16 samples.

Results

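The genes described here encode proteins that move, space or chemically mark nucleosomes: the SWI/SNF, ISWI, CHD and INO80 remodelling families, and histone modifiers and other proteins that are found with nuclear myosin 1 (NM1) on chromatin. The list held 38 genes. The platform annotation used here named a probe set for 31 of them, out of 17097 genes covered, and these 31 genes had 72 probe sets. Each gene was read from its probe set with the highest mean over the 16 arrays. Smarca4, Ep300, Setd1a, Arid1b, Baz1a, Dek and Chd2 were not analysed here.

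Transcript levels were measured in lungs and heart of 3 NM1 wild type (WT) and 3 NM1 knock-out (KO) mice, and in skin fibroblasts from 2 WT and 2 KO mice. The organs were chosen for their high expression of NM1. Lungs and heart came from the same 6 animals (WT mice 1592, 1593 and 1624, KO mice 1586, 1602 and 1603), and the fibroblasts carry 4 other mouse numbers (WT 1571 and 1623, KO 1550 and 1584). The sources used here do not give the strain, age or sex of the mice or the structure of the knock-out allele. Organs were measured whole, so for every gene a different mix of cell types and a different amount of RNA per cell cannot be told apart. Values are log2 signals, so a difference of 1 is a doubling, and a gene's level is compared only with its own level in other samples.

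NM1 is an isoform of Myo1c, an actin-based motor that also works in the nucleus. It sits in the B-WICH complex with Smarca5, an ISWI motor, and Baz1b, also called WSTF, and this complex opens chromatin on ribosomal RNA genes and brings in the histone acetyltransferases Kat2a and Kat2b. SWI/SNF complexes slide or eject nucleosomes through the motor Smarca4 or Smarca2, and they are assembled from families of alternative subunits, so that muscle, neural and stem cells carry different versions. Smarcd3, the muscle-enriched member of one such family, helps cardiac transcription factors reach their targets.

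Myo1c itself, averaged over its 4 probe sets, was lower in KO samples of every tissue, with no overlap between genotypes. In lungs it was 6.65 ± 0.40 log2 (SD, n = 3) in KO and 8.0 ± 0.41 in WT mice, a difference of -1.35. In heart the difference was -0.75 and in fibroblasts -1.41. None of the 4 probe sets passed an adjusted p of 0.05, the smallest being 0.0674 in lungs, and they do not separate the NM1 isoform from the other forms of the gene. Each tissue carried the markers of its label. Marker lists are given as the mean log2 signal of their measured genes, and the alveolar type II list was 13.4 to 13.7 in lungs (2 of 4 genes measured), the ventricular list 13.6 in every heart (4 of 5) and the fibroblast list 9.44 to 9.98 in fibroblasts (7 of 7). Transcripts of dividing cells (5 of 6) were 8.28 to 8.43 in the cultured fibroblasts against 3.56 to 4.81 in the organs. The lungs of KO mice 1586 and 1603 and WT mouse 1592 carried adipocyte transcripts (5 of 7) at 8.01 to 10.3, against 4.16 to 4.59 in the other lungs, and atrial transcripts (4 of 5) at 9.28 to 10.3 against 5.98 to 7.53. The hearts of KO mice 1586 and 1602 had atrial transcripts at 6.30 and 5.47, against 10.3 to 12.2 in the other hearts. The KO heart of mouse 1602 also stood apart in its scale: its upper quartile was 5.63, and those of the other hearts were 6.17 to 6.31. Results below were therefore also computed without these arrays.

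Across the 31 genes levels differed far more between tissues than between genotypes. The means of the 3 tissues lay apart by a median of 0.95 log2 over the genes, while the median size of the KO minus WT difference was 0.12 in lungs, 0.19 in heart and 0.09 in fibroblasts.

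**Figure D1:**
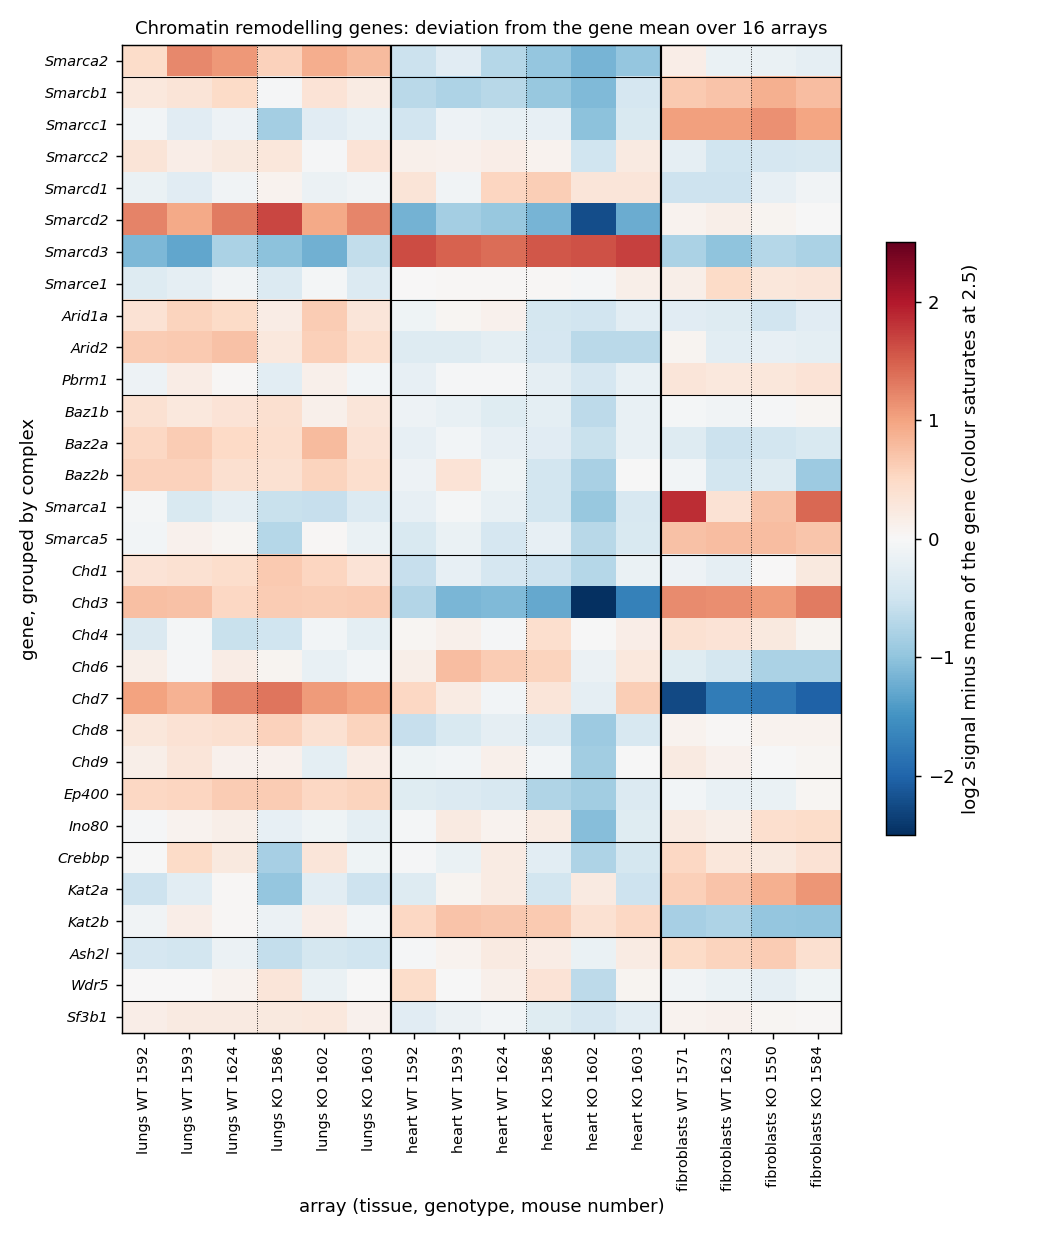
Log2 signal of each gene (rows, grouped by complex) on each of the 16 arrays (columns, by tissue, genotype and mouse number), as the deviation from that gene's mean. Smarcd3 is high in all 6 hearts, Smarcd2, Smarca2 and Chd7 are high in all 6 lungs, and the KO heart of mouse 1602 is low in most rows, being the lowest of 6 hearts for 26 of 31 genes.

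The first question was whether these genes respond to loss of NM1. None of the 31 passed an adjusted p of 0.05 in any tissue, where 0.0301% of all probe sets tested passed in lungs, 0.127% in heart and 0.0549% in fibroblasts (limma with Benjamini-Hochberg adjustment over all probe sets above a low-signal filter, which 30 of the 31 passed in each tissue). Smarca1, the second ISWI motor, lay under the filter in lungs and heart, and Smarcd1 in fibroblasts. With 3 against 3 mice, or 2 against 2 cultures, a p that misses the threshold does not show that the levels were equal, and the 95% intervals in the plot of knockout effects give the differences the data allow.

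**Figure D2:**
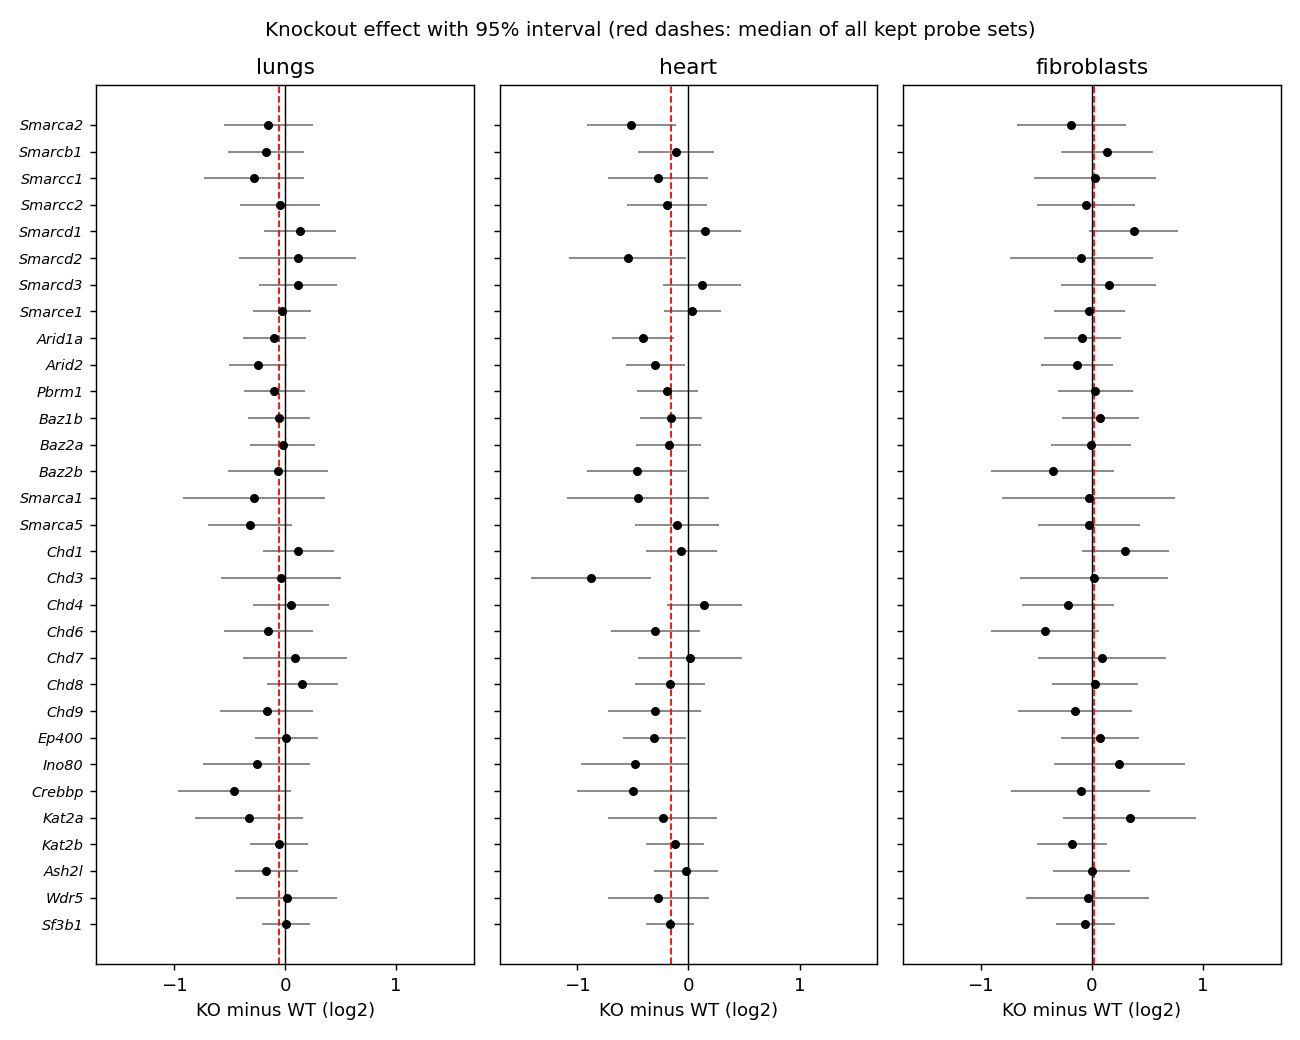
KO minus WT difference in log2 signal for each gene in lungs, heart and fibroblasts (points), with 95% intervals from limma (bars) and the median of all probe sets tested (red dashes). The differences centre near 0 in lungs and fibroblasts, and in heart they centre near -0.19, close to the median of -0.16 for all probe sets; Smarca1 in lungs and heart and Smarcd1 in fibroblasts were under the filter and are drawn without being tested.

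In lungs 10 genes were higher and 20 lower in KO mice, with a median difference of -0.06, the same as the -0.06 of all probe sets, of which 60% were lower. No gene reached an unadjusted p of 0.05, against 6.96% of all probe sets. The smallest p belonged to Arid2, the DNA-binding subunit of the PBAF form of SWI/SNF. It was 10.12, 10.12 and 10.20 in WT lungs (mice 1592, 1593 and 1624) and 9.73, 10.07 and 9.90 in KO lungs (mice 1586, 1602 and 1603). All 3 KO values lay below all 3 WT values, but the difference of -0.25 ± 0.12 (SE) had an adjusted p of 0.713 in limma. Crebbp, an acetyltransferase and coactivator, was 8.41, 8.88 and 8.66 in WT and 7.58, 8.70 and 8.29 in KO lungs, where mice 1586 and 1603 lay below the WT range and mouse 1602 inside it (difference -0.46, adjusted p 0.713). Smarca5 differed by -0.32 and Kat2a by -0.33, with adjusted p of 0.716 and 0.738. Values of the genotypes did not overlap for 2 genes, Arid2 and Ino80, both lower in KO (6.46% of all probe sets), and for no gene higher in KO (5.08%).

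In heart 25 genes were lower and 5 higher in KO mice, and 7 had an unadjusted p under 0.05 in limma, all of them lower in KO. Most of the array leaned the same way: 72.2% of all probe sets were lower in KO hearts, 17% had such a p, 14.9% had it and were lower, and the median difference was -0.19 for the genes and -0.16 for all probe sets. Chd3, a motor of the NuRD repressor complex, had the smallest p. It was 4.81, 4.40 and 4.43 in WT hearts (mice 1592, 1593 and 1624) and 4.27, 2.90 and 3.85 in KO hearts (mice 1586, 1602 and 1603). The genotypes did not overlap, mouse 1602 was the lowest by far, and the difference was -0.88 ± 0.25 (SE), with an adjusted p of 0.143. The KO mean of 3.67 lay below the filter value of 3.79, the median of all values on the arrays, and with the KO hearts under that value set to it WT was higher by at least 0.58.

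Arid1a, the DNA-binding subunit of the BAF form of SWI/SNF, was 8.67, 8.83 and 8.89 in WT hearts and 8.35, 8.31 and 8.51 in KO hearts. All 3 KO hearts lay below all WT hearts, with a difference of -0.41 ± 0.13 (adjusted p 0.169). Smarca2, the SWI/SNF motor also called Brm, was 7.67, 7.94 and 7.49 in WT and 7.25, 7.05 and 7.25 in KO hearts, again without overlap (-0.52 ± 0.19, adjusted p 0.203). The other probe set of Smarca2 gave only -0.06 (adjusted p 0.937), and that of Arid1a gave -0.36 (adjusted p 0.263). Arid2 was 9.15, 9.16 and 9.24 in WT and 9.05, 8.81 and 8.79 in KO hearts (-0.30 ± 0.12, adjusted p 0.246), and its other probe sets above the filter gave -0.58 and -0.26. The other 3 genes with a p under 0.05 were Ep400 (-0.31), a motor that deposits variant histones, Baz2b (-0.47), an ISWI partner, and Smarcd2 (-0.55), with adjusted p from 0.264 to 0.283. The other probe sets of Smarcd2 went both ways, at 0.50 (adjusted p 0.236) and -0.55 (adjusted p 0.224). Values did not overlap for Arid2, Chd3, Smarca2, Crebbp and Arid1a, all 5 lower in KO (13.7% of all probe sets), and for none higher in KO (3.91%).

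The shift was much smaller without the KO heart of mouse 1602. Its median over the 31 genes was 6.79 log2, against 7.25 to 7.44 in the other hearts. Without it 18 genes were lower and 12 higher (54.4% of all probe sets lower), and the median difference was -0.04 (-0.02 for all probe sets). An unadjusted p under 0.05 in limma was reached by 4 genes, all lower, where 6.26% of all probe sets had it and were lower. When the arrays were scaled to 1 common distribution (quantile normalization), 19 were lower and 11 higher (52.7% of all probe sets lower). The median was again -0.04, and the median of all probe sets moved from -0.16 to -0.02. Without both KO hearts low in atrial transcripts, which keeps only KO heart 1603, the split was 18 to 12 (53.5% of all probe sets lower). Chd3 passed the threshold when KO heart 1586 was left out (-1.18, adjusted p 0.0419) and Ep400 when KO heart 1603 was left out (adjusted p 0.0429), settings in which 113 and 1054 probe sets passed. Without KO heart 1602 the Chd3 difference was -0.49 (adjusted p 0.314). Ep400 differed by 0.07 on the mean of its probe sets. Fibroblast transcripts were also lower in KO hearts, 6.85 to 7.45 against 7.59 to 8.09 in WT, and endothelial transcripts 7.48 to 8.18 against 8.19 to 8.36. Their part in these differences was not tested.

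In fibroblasts 12 genes were higher and 18 lower in KO, with a median of -0.02 against 0.02 for all probe sets. None had an unadjusted p under 0.05 in limma, where 3.33% of all probe sets did. Chd6, a CHD motor, was 5.80 and 5.67 in WT and 5.31 and 5.32 in KO cultures, a difference of -0.42 ± 0.23 (adjusted p 0.9999). Chd1, the CHD motor that reads the mark of active promoters, was 6.03 and 5.93 in WT and 6.16 and 6.40 in KO (0.30 ± 0.18). Baz2b differed by -0.35 and Kat2a by 0.34, each of these 3 with an adjusted p of 0.9999. Values did not overlap for 6 genes higher in KO and 6 lower, which with 2 against 2 samples 19.5% and 13% of all probe sets showed.

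Of the genes for B-WICH proteins, Smarca5 differed by -0.32, -0.10 and -0.02 between KO and WT in lungs, heart and fibroblasts, Baz1b by -0.06, -0.16 and 0.08, and Sf3b1, a splicing factor found in B-WICH, by 0.01, -0.16 and -0.06. The other probe sets of Sf3b1 gave -0.90 (unadjusted p 0.00251, adjusted p 0.126 in limma) and -0.20 (adjusted p 0.352) in heart. Ddx21, an RNA helicase of the complex, differed by -0.43 ± 0.18 (SE, unadjusted p 0.0339, adjusted p 0.711 in limma) in lungs, -0.31 in heart and 0.23 in fibroblasts, and by -0.37 ± 0.11 (adjusted p 0.308) on the mean of lungs and heart. Actb, which encodes beta-actin, differed by -0.17 in lungs, -0.36 in heart (unadjusted p 0.0181, adjusted p 0.212 in limma) and -0.11 in fibroblasts. None of these 5 genes passed the test.

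When lungs and heart of each mouse were averaged, 24 genes were lower and 6 higher in KO mice, where 68% of all probe sets were lower. The median was -0.14 for the genes and -0.10 for all probe sets, and -0.06 and -0.02 after quantile normalization. Of the genes, 7 had an unadjusted p under 0.05 in limma, all lower, where 11.8% of all probe sets did so in that direction (13.5% in either), and none passed after adjustment (0.00802% of all probe sets). Crebbp was first (-0.48 ± 0.12, adjusted p 0.305), followed by Arid2 (-0.27), Chd3 (-0.46) and Smarca2 (-0.33). The difference of KO effects between tissues passed for no gene after adjustment, where 0%, 0.0197% and 0.0203% of all probe sets passed for lungs against heart, lungs against fibroblasts and heart against fibroblasts. Chd3 came closest, its effect differing by 0.84 ± 0.36 between lungs and heart (unadjusted p 0.0344, adjusted p 0.682 in limma) and by -0.90 ± 0.40 between heart and fibroblasts (unadjusted p 0.0415, adjusted p 0.632). It was the only gene with an unadjusted p under 0.05 in either (7.22% and 7.77% of all probe sets), and between lungs and fibroblasts there was none (4.37%).

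The tissues, in contrast, differed in many of these genes in both genotypes. WT lungs and heart differed in 17 of 30 genes and KO lungs and heart in 20, against 60.2% and 68.4% of all probe sets, so the share lay near the background. The same 17 passed in both genotypes with the same sign, 13 higher in lungs and 4 higher in heart (55% of all probe sets in all, 32.7% and 22.2% in each direction). The comparisons in WT and KO mice use different arrays. The direction was the same in WT and KO for 28 of 30 genes between lungs and heart, 31 of 31 between lungs and fibroblasts and 29 of 31 between heart and fibroblasts. The cultured fibroblasts differed from the organs in the transcripts of dividing cells given above, and in endothelial transcripts (3.35 to 3.63, against 7.48 to 10.2 in the organs; 4 of 4 genes measured), whose part in these differences was not tested.

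**Figure D3:**
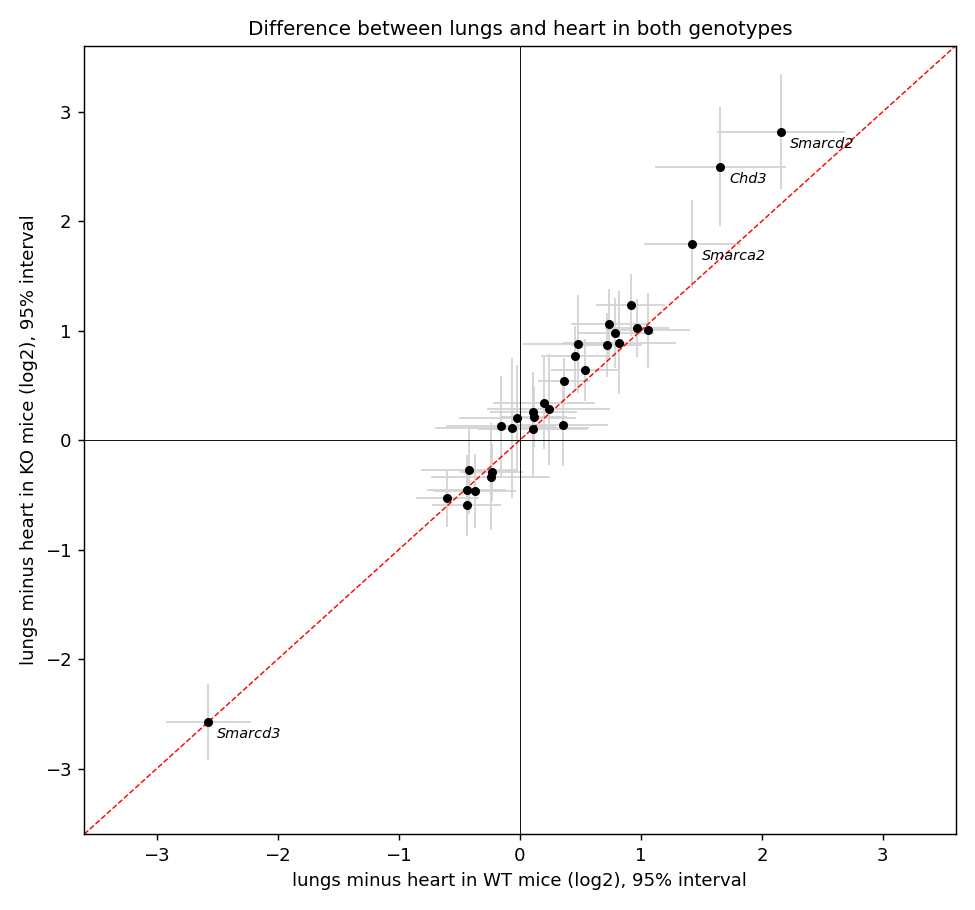
Lungs minus heart difference in log2 signal in WT mice (horizontal) and KO mice (vertical) for the 31 genes, with 95% intervals from limma and the line of equality (red). Smarcd3 lies at -2.57 and -2.58, and Smarcd2, Chd3 and Smarca2 at 2.16 and 2.82, 1.66 and 2.50, and 1.43 and 1.79; Smarca1, under the filter in both organs, is drawn without being tested, and the KO heart mean of Chd3 lay under the filter value.

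The largest differences between lungs and heart lay inside SWI/SNF, among the Smarcd genes, which encode alternative versions of the same core subunit. Smarcd3 was 8.85, 8.69 and 8.61 in WT hearts and 8.78, 8.81 and 8.93 in KO hearts. In lungs it was 6.09, 5.91 and 6.43 in WT and 6.18, 6.01 and 6.59 in KO mice, and in fibroblasts 6.42 and 6.21 in WT and 6.51 and 6.42 in KO. Every heart lay above every lung and culture, 5.96-fold above lungs in WT mice and 5.97-fold in KO mice (adjusted p 1.07e-08 and 9.39e-09 in limma), while lungs and fibroblasts did not pass the test (adjusted p 0.439 and 0.337). Smarcd2 ran the other way. It was 9.52, 9.23 and 9.57 in WT lungs and 9.95, 9.22 and 9.50 in KO lungs, against 7.10, 7.43 and 7.32 in WT hearts and 7.11, 6.07 and 7.03 in KO hearts. Lungs exceeded heart 4.47-fold in WT and 7.05-fold in KO mice, and fibroblasts lay between the organs at 8.37 and 8.42 in WT and 8.34 and 8.26 in KO. Smarcd1 was close to the filter value everywhere, 3.52 to 4.66 over the 16 arrays, and its excess in heart over lungs (0.44 in WT, 0.46 in KO) lost its call in 10 of 31 alternative fits.

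**Figure D4:**
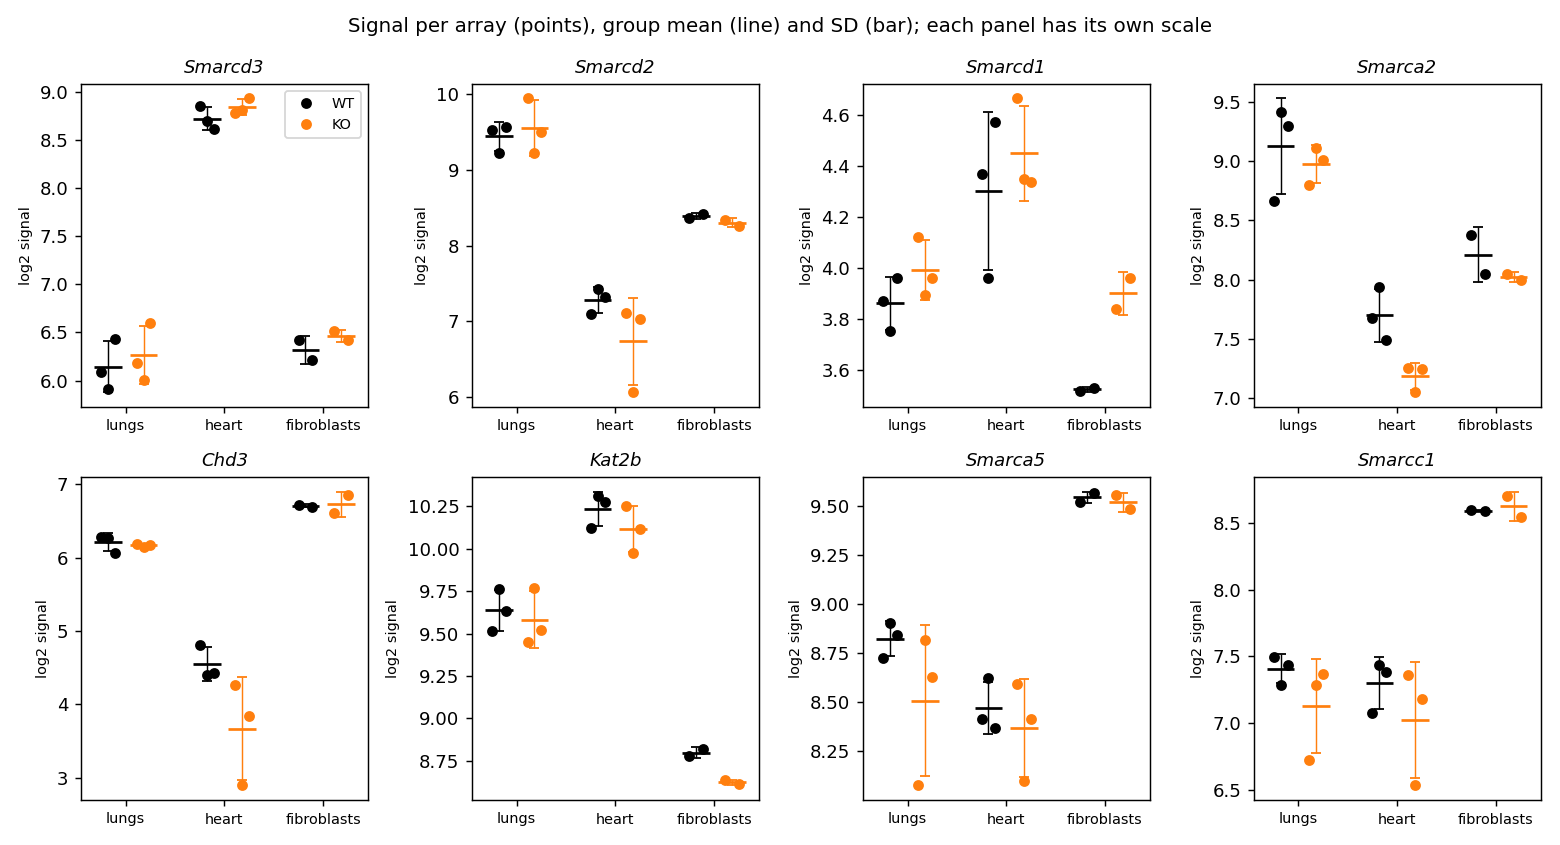
Log2 signal of 8 genes on each array (points; WT black, KO orange) with the group mean (line) and SD (bar), in lungs, heart and fibroblasts; each panel has its own scale. Smarcd3 and Kat2b are highest in heart, Smarcd2 and Smarca2 in lungs, Smarca5 and Smarcc1 in fibroblasts, and Chd3 is lowest in heart.

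The start regions of the 3 Smarcd genes are shown because the genes differ so much in tissue pattern. RefSeq windows of 250 bases before an annotated start (build GRCm38.p6) are printed 5′ to 3′ on the gene's strand, with CG dinucleotides in capitals.
Smarcd1, chr15:99702037-99702286, plus strand: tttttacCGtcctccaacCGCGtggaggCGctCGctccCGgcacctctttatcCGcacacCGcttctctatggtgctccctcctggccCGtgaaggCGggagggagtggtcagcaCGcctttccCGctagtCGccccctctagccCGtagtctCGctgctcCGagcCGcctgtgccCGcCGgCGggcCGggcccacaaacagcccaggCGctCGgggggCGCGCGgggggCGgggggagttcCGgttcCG
Smarcd2, chr11:106267633-106267882, minus strand: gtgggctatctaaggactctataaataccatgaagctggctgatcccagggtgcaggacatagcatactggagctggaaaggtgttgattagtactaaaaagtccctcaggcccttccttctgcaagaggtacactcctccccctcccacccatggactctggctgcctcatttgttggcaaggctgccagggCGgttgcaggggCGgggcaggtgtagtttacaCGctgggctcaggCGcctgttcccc
Smarcd3, chr5:24602003-24602252, minus strand: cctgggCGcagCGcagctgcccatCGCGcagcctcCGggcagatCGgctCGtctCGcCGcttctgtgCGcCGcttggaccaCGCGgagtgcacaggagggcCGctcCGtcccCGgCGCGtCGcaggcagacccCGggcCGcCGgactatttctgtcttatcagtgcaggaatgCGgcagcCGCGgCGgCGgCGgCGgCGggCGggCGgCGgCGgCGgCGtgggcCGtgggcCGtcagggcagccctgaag
The Smarcd1 window holds 29 CG dinucleotides, the Smarcd3 window 38 and the Smarcd2 window 4. The Smarcd2 and Smarcd3 windows lie at 1 of several annotated starts, since the RefSeq gene spans reach further upstream, and the arrays do not tell starts apart. Among all the genes described here, 25 had 29 such windows. Their median CG count was 20, against 6 over all 32851 windows in the table, and 23 of the 29 held 10 or more, against 37.8% of all windows. The TATA letters TATAAA, on either strand, were found in the windows of Baz2b and Smarcd2 (2 of 29, against 12.4% of all windows). The letters CCAAT, on either strand, were in 8 of the 29 and in 33.8% of all windows. These matches describe the letters of the windows only.

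Smarca2 was higher in lungs than in heart and fibroblasts. It was 8.66, 9.42 and 9.30 in WT lungs and 8.80, 9.11 and 9.01 in KO lungs, 7.67, 7.94 and 7.49 in WT hearts and 7.25, 7.05 and 7.25 in KO hearts, and 8.37 and 8.04 in WT and 8.05 and 8.0 in KO fibroblasts. All lungs lay above all other samples, 2.69-fold above heart in WT and 3.46-fold in KO mice. The core subunit Smarcb1, the tumour suppressor of rhabdoid tumours, was lowest in heart, 6.11 ± 0.06 in WT (n = 3) and 5.71 to 6.40 over all 6 hearts, against 7.17 ± 0.11 in WT lungs and 7.52 ± 0.04 (n = 2) in WT fibroblasts. Lungs exceeded heart 2.09-fold in WT and 2.0-fold in KO mice; on the mean of its 2 probe sets the KO difference was 0.19 log2 (adjusted p 0.258). The scaffold subunits Smarcc1 and Smarcc2 parted between organs and cultures. Smarcc1 was 8.59 ± 0.01 in WT and 8.62 ± 0.11 in KO fibroblasts (n = 2 each), above all lungs and hearts (6.54 to 7.50), 2.28-fold above WT lungs and 2.45-fold above WT heart. Smarcc2 was 7.07 ± 0.19 in WT fibroblasts, below the 7.67 ± 0.08 of WT lungs (n = 3). Neither passed the test between lungs and heart (adjusted p from 0.181 to 0.680). Smarce1 was 0.53 lower in lungs than in fibroblasts in both genotypes, a call lost in 2 of 26 alternative fits.

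Of the targeting subunits, Arid2 and Arid1a were highest in lungs. Arid2 was 9.73 to 10.20 in the 6 lungs, 8.79 to 9.24 in the 6 hearts and 9.22 to 9.54 in the 4 cultures. The lungs did not overlap the others, and exceeded heart 1.96-fold in WT and 2.03-fold in KO mice. Of its 3 other probe sets, those above the filter gave 0.94 and 0.71 for lungs over heart in WT mice. Arid1a was 9.25 ± 0.10 in WT lungs, 8.80 ± 0.11 in WT hearts (n = 3 each) and 8.48 ± 0.04 in WT fibroblasts (n = 2), so lungs were above both. Pbrm1, the bromodomain subunit of PBAF, was 9.19 ± 0.16, 9.07 ± 0.10 and 9.44 ± 0.02 in WT lungs, heart and fibroblasts. It was lower in heart than in fibroblasts in WT (-0.37, adjusted p 0.0353) and in KO (-0.59, adjusted p 0.00218), and lower in lungs than in fibroblasts in KO (-0.38, adjusted p 0.0292) but not past the threshold in WT (-0.25, adjusted p 0.140). Lungs and heart did not pass (0.12 in WT and 0.21 in KO, adjusted p 0.446 and 0.159).

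Among ISWI genes, Smarca5 was highest in fibroblasts, at 9.53 and 9.57 in WT and 9.56 and 9.49 in KO cultures. Lungs were 8.73, 8.90 and 8.84 in WT and 8.08, 8.82 and 8.63 in KO mice, and hearts 8.42, 8.62 and 8.37 in WT and 8.59, 8.10 and 8.41 in KO. Fibroblasts did not overlap either organ, and lay 1.65-fold above lungs and 2.11-fold above heart in WT. Smarca1 was 3.30 to 3.83 in lungs and 2.94 to 3.83 in hearts, and 5.73 and 4.24 in WT and 4.61 and 5.31 in KO fibroblasts. It was tested against fibroblasts only because it is high there, and its WT cultures lay far apart (4.99 ± 1.05, SD, n = 2). Baz1b was 9.02 ± 0.06 in WT lungs and 8.48 ± 0.10 in WT hearts (0.54 ± 0.13 SE, adjusted p 0.00287), a call lost on the mean of its 2 probe sets (0.16). Baz2a, which anchors the complex that silences ribosomal RNA genes, was 7.90 ± 0.08 in WT lungs, 7.18 ± 0.08 in WT hearts and 6.92 ± 0.15 in WT fibroblasts, and was called higher in lungs than in either in all alternative fits. Baz2b was higher in lungs than in fibroblasts (0.78 in WT, 1.07 in KO).

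Among the CHD motors, Chd7 differed more between lungs and fibroblasts than any other of the 31 genes. Chd7, which is mutated in CHARGE syndrome, was 7.04, 6.91 and 7.25 in WT and 7.38, 7.09 and 7.0 in KO lungs, and 6.55, 6.25 and 5.96 in WT and 6.34, 5.81 and 6.65 in KO hearts. In fibroblasts it was 3.78 and 4.29 in WT and 4.24 and 4.0 in KO, close to the filter value. Lungs exceeded fibroblasts 8.21-fold in WT and 8.19-fold in KO mice, and heart exceeded them 4.65-fold and 4.42-fold. Its call between KO lungs and heart (0.89) was lost when KO hearts 1586 and 1602 were left out (0.51), which keeps only KO heart 1603. It was also lost without the lungs with adipocyte transcripts (0.82), which keeps only KO lung 1602. Chd3, given above for heart, was 6.28, 6.27 and 6.06 in WT and 6.18, 6.15 and 6.17 in KO lungs, and 6.72 and 6.69 in WT and 6.61 and 6.85 in KO fibroblasts. Heart was below both, and lungs exceeded heart 3.16-fold in WT and at least 4.60-fold in KO mice (KO hearts under the filter value set to it). Chd4, the other NuRD motor, went the other way by a small margin, at 6.70 ± 0.26 in WT lungs, 7.07 ± 0.08 in WT hearts (n = 3 each) and 7.39 ± 0.03 in WT fibroblasts (n = 2). Lungs were below heart by 0.37 in WT (adjusted p 0.0554) and 0.47 in KO mice (adjusted p 0.0180), and the latter missed the threshold with the mouse as a block (adjusted p 0.0535). Chd8 was higher in lungs than in heart by 0.74 in WT and 1.06 in KO mice, and Chd1 by 0.79 and 0.97, both in all 31 alternative fits. Chd6 was 6.63 ± 0.34 in WT hearts and 5.73 ± 0.09 in WT fibroblasts (0.89 ± 0.21 SE, adjusted p 0.00187). Chd9 passed no test between tissues in either genotype (differences from -0.33 to 0.34).

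Of the remaining motors, Ep400 was 8.14, 8.15 and 8.26 in WT and 8.26, 8.15 and 8.18 in KO lungs, and 7.31, 7.28 and 7.21 in WT and 6.86, 6.75 and 7.27 in KO hearts. No lung overlapped a heart, and lungs exceeded heart by 0.92 in WT and 1.23 in KO mice. It had 7 probe sets, of which 1 was called in the opposite direction in KO mice (-1.64, adjusted p 0.0394). Smarcd2 likewise had 1 probe set at -0.53 in KO mice (adjusted p 0.0317), while its other one gave 2.37. Ino80 did not pass between lungs and heart (-0.02 in WT, 0.20 in KO).

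Among the histone modifiers, Kat2b was highest in heart and lowest in fibroblasts. It was 10.12, 10.31 and 10.27 in WT and 10.25, 9.98 and 10.12 in KO hearts, 9.52, 9.76 and 9.63 in WT and 9.45, 9.77 and 9.52 in KO lungs, and 8.78 and 8.82 in WT and 8.63 and 8.61 in KO fibroblasts. The 3 tissues did not overlap. Heart was 1.51-fold above lungs and 2.71-fold above fibroblasts in WT mice. The first call was lost only when the 3 lungs with adipocyte transcripts were left out (-0.34 in KO), which keeps only KO lung 1602. Kat2a, the paralog of Kat2b, was highest in fibroblasts, at 5.46 and 5.59 in WT and 5.76 and 5.97 in KO, against 3.91 to 4.90 in lungs and 4.37 to 5.10 in hearts. Crebbp did not pass between lungs and heart (0.24 in WT, 0.28 in KO). Ash2l, a shared subunit of the methyltransferase complexes that mark active promoters, was 8.08 ± 0.05 in WT fibroblasts, 7.66 ± 0.13 in WT hearts and 7.22 ± 0.17 in WT lungs, and its partner Wdr5 passed in no tissue comparison (differences from -0.16 to 0.32). Ash2l lost its lungs against heart call on the mean of its 2 probe sets (-0.29, adjusted p 0.0627). Sf3b1 was higher in lungs than in heart (0.36 in WT, 0.54 in KO), a call lost on the mean of its 3 probe sets in WT (0.22).

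Read by tissue, 7 genes were above both other tissues in lungs in both genotypes (Arid2, Smarca2, Chd7, Baz2a, Ep400, Smarcd2 and Arid1a), where 14.5% of all probe sets were. In heart 3 were above both (Smarcd3, Kat2b and Smarcd1; 13%) and 5 below both (Smarcb1, Chd3, Smarca2, Chd8 and Smarcd2; 13.8%). In fibroblasts 5 were above both (Ash2l, Kat2a, Smarcc1, Smarca5 and Smarca1; 19.6%; 4 without Smarca1, which lay under the filter in both organs) and 2 below both (Kat2b and Chd7; 9.26%). Only Ash2l was below both in lungs (8.2%). Between lungs and fibroblasts 17 of 31 genes passed in both genotypes, 10 higher in lungs and 7 lower (54.6% of all probe sets in all, 25.1% and 29.5% by direction), and between heart and fibroblasts 16 of 31, 5 higher in heart and 11 lower (56.7%, with 22.6% and 34.2% by direction). Smarca1 is among the lower genes in every count against fibroblasts because only its fibroblast level passed the filter. Without it these were 16 of 30 (10 higher, 6 lower) for lungs and 15 of 30 (5 and 10) for heart. The 5 still hold Smarcd1, which lay under the filter in fibroblasts. It was tested between heart and fibroblasts only because its heart level passed the filter. The counts of genes above both in heart, and of genes higher in WT and KO heart than in fibroblasts, hold it too. Calls that held in every alternative fit numbered 10 between lungs and heart, 8 between lungs and fibroblasts and 9 between heart and fibroblasts. The share of all probe sets that held in every fit is not given here, so these counts are not set against a background. By direction, 13 genes passed as higher and 4 as lower in WT lungs than WT heart (34.8% and 25.4% of all probe sets), and 14 and 6 in KO mice (43.4% and 25%). Against fibroblasts, WT lungs gave 12 and 7 (28.4% and 31.7%, 60.1% in all), KO lungs 12 and 10 (29.5% and 35.7%, 65.2% in all), WT heart 6 and 11 (27.7% and 36.2%, 63.8% in all) and KO heart 5 and 18 (24.5% and 42.7%, 67.2% in all). The split of calls moved with the scaling. After quantile normalization KO heart against KO fibroblasts gave 10 higher and 11 lower in place of 5 and 18, WT heart against WT fibroblasts 9 and 9 in place of 6 and 11, and KO lungs against KO fibroblasts 15 and 8 in place of 12 and 10. The median of all probe sets moved with it from 0.19 to 0.04 for WT lungs against heart, from 0.32 to 0.07 for KO lungs against heart and from -0.32 to -0.11 for KO heart against fibroblasts. The share of all probe sets called after quantile normalization is not given here, so those splits have no background beside them.

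Paralogs that can replace each other in a complex were compared within mice, as the lungs minus heart difference of one gene less that of the other, with both genotypes together (two-sided exact sign-flip permutation test, n = 6 mice, smallest possible p 0.03125). Of the 9 pairs listed, 4 could be read, with p-values adjusted over these 4. Both Smarca5 and Smarca1 were measured, but Smarca1 lay under the filter in both organs and the pair was left out after its values were seen; with it the 2 smallest adjusted p were 0.0781. Smarcd1 against Smarcd3 gave 2.13 ± 0.35 (SD), positive in 6 of 6 mice (exact p 0.03125, adjusted 0.0625). Chd4 against Chd3 gave -2.50 ± 0.55, positive in 0 of 6 mice, with the same exact p values, and Chd3 lay under the filter value in KO hearts on average. In the first pair Smarcd1 was close to the filter value everywhere (3.52 to 4.66 over the 16 arrays). Smarcd3 alone differed between lungs and heart by -2.57 in WT and -2.58 in KO mice. Kat2a against Kat2b gave 0.28 ± 0.30 (5 of 6 positive, exact p 0.0938, adjusted 0.125) and Smarcc1 against Smarcc2 -0.08 ± 0.41 (3 of 6, exact p 0.812). None passed after adjustment.

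Other subunits of the same complexes, 97 genes beside Myo1c of which 85 were measured, were read beside them. None passed the KO against WT test in any tissue. In lungs 20 were higher and 60 lower in KO, where 60% of all probe sets were lower, and 7 had an unadjusted p under 0.05 in limma (6.96% of all probe sets). In fibroblasts 41 were higher and 40 lower (44.7% of all probe sets lower), and 2 had such a p (3.33%). In heart 16 were higher and 65 lower (72.2% of all probe sets lower), and 12 had such a p (17%). The heart split was 33 to 48 without KO heart 1602, where 54.4% of all probe sets were lower, and 41 to 40 after quantile normalization, where 52.7% were. Between WT lungs and heart 34 of 83 passed, 24 higher in lungs and 10 lower, where 60.2% of all probe sets passed, 34.8% higher and 25.4% lower. In the NuRD complex 4 of 11 other genes passed as higher and 3 as lower in WT lungs than heart, and 4 and 4 in KO mice. In KO mice 43.4% of all probe sets were higher and 25% lower (68.4% in all), so the NuRD share lay near the background in both genotypes. Hdac1, its deacetylase, was higher in lungs by 1.45 in WT and 1.95 in KO mice, and it was lower in KO than WT hearts on the measured values (-0.84 ± 0.16 SE, adjusted p 0.0675 in limma), a value named after it was seen. The NuRD subunits Gatad2a (1.08 and 1.40) and Mta3 (1.08 and 0.85) were also higher in lungs, and Cdk2ap1 (-1.01 and -1.20) and Mbd3 (-0.91 and -0.89), likewise named after their values were seen, were lower. In the SAGA acetyltransferase complex Supt20 was higher in lungs (1.48 and 1.79) and Supt3 in heart (1.43 and 1.45, as heart minus lungs). The methyltransferase Kmt2b was higher in lungs (0.86 and 1.25), as was Ino80d of the INO80 complex (0.93 and 1.24), while the histone-fold protein Chrac1, an ISWI partner, was higher in heart (0.94 and 1.12).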

How the data were processed

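Total RNA of 16 samples was extracted with Trizol and hybridised as biotin-labelled cRNA to Affymetrix mouse arrays, per the labels' protocols. Each deposited value is a probe set's log2 signal, and the submitters' processing notes name Partek 6.4 as the authors' software. Its background correction and normalization settings are not stated in the sources. The table held 45037 probe sets beside 104 control entries. GEO's platform annotation gave 1 gene to 28898 of them, several to 551 and none to 15588, and 28689 of the first were matched by gene number. Array medians ranged from 3.65 to 3.93, and no arrays were identical.

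The 6 group means were fitted over the 16 arrays with limma 3.58.1 in R 4.3.3, with 10 residual and 3.53 prior degrees of freedom. Probe sets with a mean above 3.79, the median of all values, in a compared tissue were tested, p-values were adjusted over them by Benjamini and Hochberg, and a call is an adjusted p under 0.05. The mean of lungs and heart per mouse was fitted separately, with 4 residual degrees of freedom. The number of arrays limits the precision. In the fit of the 6 groups each p-value sets a difference against a variance pooled over all groups. Tests between fibroblast cultures therefore also draw on the spread between lung and heart arrays. In simulated data the fit was tested on known changes, and the outcome is not given here. The simulated noise was independent between arrays, without the pairing of organs by mouse or an array that stands apart in scale.

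The genes and lists were chosen with earlier results of these data known. Every gene of the list could be named; those given in full were the 4 with the smallest p in each KO comparison, the 4 largest tissue differences in each direction called in both genotypes, the paralogs and the genes with no tissue call. Genes of other lists were named where they had the largest tissue differences.

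Lungs and heart are paired because their titles give the same mouse. Deviations from the group means correlated between the organs of a mouse by 0.0404 to 0.169, and 4 of 6 mice correlated best with themselves. Alternatives were quantile normalization, no filter, a filter at 5, an intensity trend, the mean of a gene's probe sets, a fit of the compared groups alone, the mouse as a block, and leaving out each array. Leaving out the lungs with adipocyte transcripts or the KO hearts low in atrial transcripts, the paralog adjustment over 4 pairs and the heart splits of the other genes were chosen after seeing the data. Without those lungs only KO lung 1602 remains, and without those hearts only KO heart 1603, so calls lost in these fits also reflect the single KO sample.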

Additional observations from a re-analysis of the deposited data

How the results depend on the processing

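In the KO against WT comparisons no gene was called under any alternative, except in heart, where leaving out 1 array gave 0 to 1 (1 without KO heart 1586 or KO heart 1603). Calls between WT heart and WT fibroblasts ranged from 11 to 16 with 1 array left out, against 17 with all arrays, the lowest without WT heart 1592. Between KO lungs and KO fibroblasts 13 genes were called without the lungs that carried adipocyte transcripts, against 22. On gene means Chd1 turned from 0.56 to -0.036 for WT lungs against fibroblasts, and Ep400 from -0.60 to 0.038 for KO heart against fibroblasts. Among the paralog pairs Kat2a/Kat2b turned to -0.14 after quantile normalization, Smarca5/Smarca1, which cannot be read because Smarca1 lay under the filter, to -0.037 on gene means, and Smarcc1/Smarcc2 ranged from -0.15 to 0.072 with 1 mouse left out. The cause was not tested.

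With the mouse as a random replicate block, Chd4 lost its KO lungs against fibroblasts call (adjusted p 0.0503); with the mouse as a fixed replicate block in lungs and heart, Chd4 (0.0535) and Smarce1 (0.0964) lost their KO lungs against heart calls, and the block changed no other call. Single cultures decided several calls against fibroblasts. Without WT fibroblasts 1623 the calls against WT lungs were lost for Kat2a (-0.84), Smarcc2 (0.46), Baz2b (0.59) and Smarce1 (-0.37). Without WT fibroblasts 1571 they were lost for Baz1b (0.42) and Smarca1 (-0.58). Leaving out culture 1571 also cost Smarca2 its call between WT heart and fibroblasts (-0.34). These fits keep only a single WT culture, so the lost calls also reflect that. Of the values for single genes, 996 kept direction and call under alternatives that left out no single array, 88 lost the call and 2 reversed. Levels near the filter value (Smarcd1, Chd7 in fibroblasts, Chd3 in KO hearts) leave little signal over background.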
